A study of Mus musculus with 10 samples.

Results

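The ADAM and ADAMTS family was followed as a set of 36 genes in cardiomyocytes of the infarcted mouse heart, out of the 51789 genes counted. The members were chosen by gene symbol, through the Ensembl identifiers that the GENCODE M21 annotation of GRCm38 pairs with them. Earlier results of these data were known when they were chosen. All 36 were found, each under a single identifier, and 33 of them passed the filter on low counts and were compared between the groups. The set holds 12 ADAM genes, 19 ADAMTS genes and 5 ADAMTS-like genes.

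ADAM proteins are membrane-anchored metalloproteinases that cut the outer part of other membrane proteins, such as growth factor precursors, cytokines, cell adhesion molecules and Notch receptors, and so release them from the cell. ADAMTS proteins carry thrombospondin repeats, are secreted, and cut large molecules of the extracellular matrix, among them versican, the procollagens and the von Willebrand factor. In the heart after infarction, both are known for their part in growth factor release, inflammation and the rebuilding of the matrix.

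RNA was taken from cardiomyocytes of 5 non-transgenic littermate control mice (NLC-MI) and 5 mice with a cardiomyocyte-specific transgene for the G protein-coupled receptor kinase 5 (TgGRK5-MI), with 1 library for each mouse. All mice had a myocardial infarction (MI) by permanent ligation of the left coronary artery, and the cells were collected on day 4 after it. The study operated on young adult mice of both sexes. The sample titles give no sex for the single mice, so the balance of the sexes between the groups is not known from them. Since every library comes from an infarcted heart, the comparison addresses the effect of the GRK5 transgene within infarction, not the effect of infarction.

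The libraries held from 7968779 to 23381527 counts, and 3 counts, taken as the least that the depth can show, equal 0.121 to 0.392 CPM, the counts scaled to library size. Grk5 itself lay between 46.5 and 73.0 CPM in the NLC-MI libraries and between 551.6 and 1698 CPM in the TgGRK5-MI libraries, as the labels say. Markers of cardiomyocytes were the highest of 11 marker lists in every library, at a sum of 52531 to 134324 CPM over 10 genes. Fibroblast markers followed with sums of 4054.1 to 24788 CPM over 10 genes. The sums were highest in NLC-MI 1, NLC-MI 2, TgGRK5-MI 1 and TgGRK5-MI 2 (14179 CPM or more) and reached at most 9792.0 CPM in the other 6 libraries. They rest largely on collagen genes. In NLC-MI 1, Col1a1, Col1a2 and Col3a1 were at 6147.9, 5664.8 and 7657.2 CPM of a sum of 23600 CPM. These genes were highest in the same 4 libraries, whereas Dcn of the same list was highest in TgGRK5-MI 4 (555.4 CPM). The groups overlapped in the sums of all 11 lists (two-sided exact permutation tests of the sums, p from 0.246 to 0.984). Single markers did reach an unadjusted p under 0.05 in the edgeR test described below. Lower in TgGRK5-MI were 1 of 10 cardiomyocyte, 2 of 8 mural and 1 of 4 atrial markers tested, where 2.08% of all genes tested were lower. Higher was 1 of 5 Schwann cell markers tested, where 1.77% of all genes were higher, and the other lists had none.

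What divides the family by function is a short stretch of the protein in which 3 histidines hold the zinc ion of the catalytic centre and a glutamate activates water. Reading the coding sequences of GENCODE M21 on GRCm38, 28 of the 36 members hold this stretch of 11 residues, namely 9 ADAM genes and all 19 ADAMTS genes. It was found in none of the 5 ADAMTS-like genes and not in Adam11, Adam22 and Adam23. The sequences below show the 33 bases for the members whose values are described first, for Adamts9 as the close relative of Adamts20, for the well studied sheddases Adam10 and Adam17, and for the 3 ADAM genes without the site, placed by alignment with 7 catalytic ADAM members. Capitals mark the codons at the 3 histidine positions and the glutamate position, read 5′ to 3′ on the coding strand. Where the coordinates span more than 33 bases, an intron lies inside the stretch.
Adamts20 (chr15:94353678-94355296, reverse strand, exons 8 and 9): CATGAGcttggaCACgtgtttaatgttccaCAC
Adamts9 (chr6:92905285-92908493, reverse strand, exons 8 and 9): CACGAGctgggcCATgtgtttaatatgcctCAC
Adamts7 (chr9:90179456-90180640, forward strand, exons 7 and 8): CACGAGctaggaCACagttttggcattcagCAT
Adam10 (chr9:70754296-70761585, forward strand, exons 9 and 10): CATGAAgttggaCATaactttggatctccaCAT
Adam17 (chr12:21336732-21336764, reverse strand, exon 12): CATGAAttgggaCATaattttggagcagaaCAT
Adam11 (chr11:102773613-102773645, forward strand, exon 13): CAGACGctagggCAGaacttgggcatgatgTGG
Adam22 (chr5:8143064-8143096, reverse strand, exon 13): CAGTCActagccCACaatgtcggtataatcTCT
Adam23 (chr1:63547763-63547795, forward strand, exon 13): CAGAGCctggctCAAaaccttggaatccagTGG

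Adam11 and Adam23 have 0 of the 3 histidines and Adam22 has 1, and the glutamate is missing in all 3 genes. Adamts20 and Adamts9 carry an asparagine as residue 8 of the stretch, as do Adamts1, Adamts4 and Adamts15. A serine stands there in Adamts8 and a glycine in the other 22 members with the site. Of the 7 ADAMTS genes that cleave proteoglycans, Adamts5 is thus the only one with the glycine.

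In the comparison of TgGRK5-MI with NLC-MI, 0 of the 33 members tested had an adjusted p under 0.10 in edgeR's quasi-likelihood test, which adjusts over all 15232 genes tested, of which 0.0788% passed. At an unadjusted p under 0.05, Adamts20 was higher in TgGRK5-MI, and Adam11 and Adamts7 were lower. That is 1 member higher, where 1.77% of all genes tested were, and 2 members lower, where 2.08% of all genes tested were. DESeq2 gave an adjusted p under 0.10 for 2 members, Adam11 and Adamts20 (0.397% of the genes it tested), and limma-voom gave it for 1, Adam11 (0.328%). Over the 33 members the median log2 fold change was -0.02, with 16 positive and 17 negative values, against a median of 0.00 over all genes tested.

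**Figure D1:**
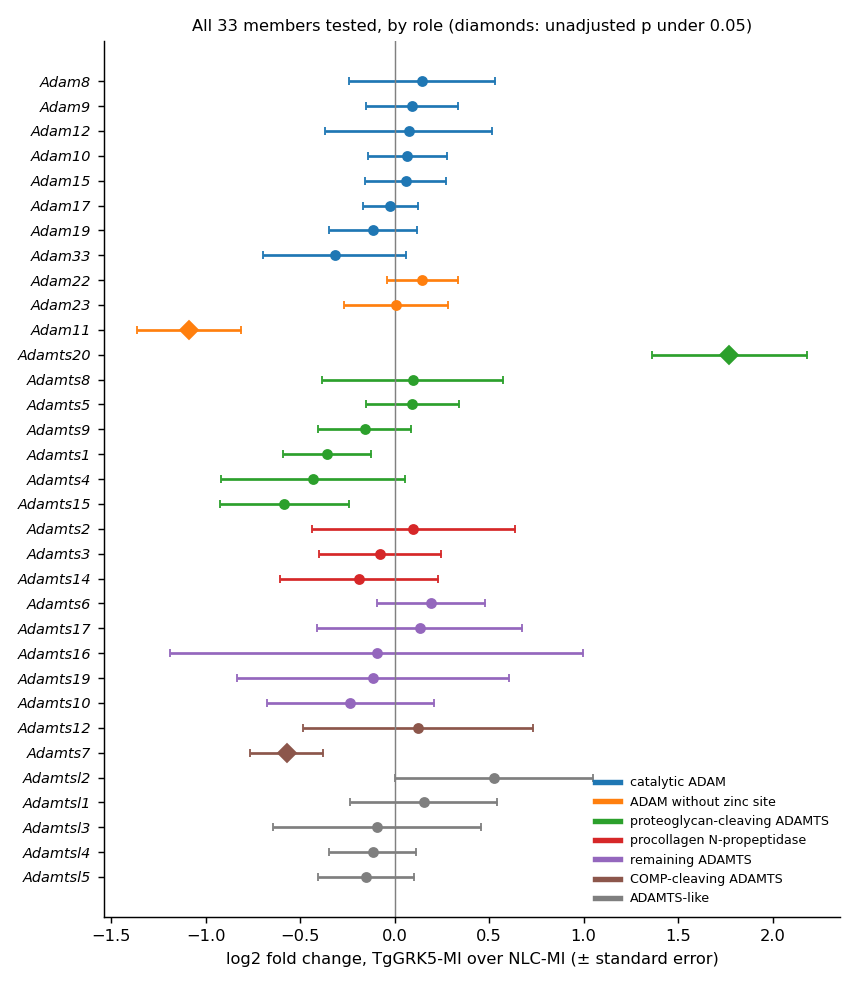
Log2 fold change of TgGRK5-MI over NLC-MI (x axis) for the 33 members tested, with bars of 1 standard error from edgeR, grouped and coloured by role. Diamonds mark the 3 members with an unadjusted p under 0.05: Adamts20 at 1.77 and Adam11 at -1.09 lie outside the range of the other 30 (-0.58 to 0.52), and Adamts7 at -0.57 lies inside it with a small standard error.

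Adamts20 (ENSMUSG00000022449, chromosome 15 from 94270163 to 94465418, reverse strand) encodes a versican-cleaving protease that is known from the belted coat colour mutant. It lay at 1.10, 1.42, 0.653, 0.375 and 0.196 CPM in NLC-MI 1 to 5, and at 3.26, 2.79, 2.26, 2.15 and 2.79 CPM in TgGRK5-MI 1 to 5. Every TgGRK5-MI library was above every NLC-MI library. Non-overlapping groups of that direction were found for 1 member, and for 0.584% of all genes tested. The counts behind these values are small, from 3 to 35 in NLC-MI and from 20 to 73 in TgGRK5-MI. On the log2 scale this was a difference of 1.77 (standard error 0.41), or 3.41-fold. By edgeR the unadjusted p was 0.00108 and the adjusted p 0.435, and the adjusted p was 0.0264 by DESeq2 and 0.162 by limma-voom. An exact permutation test of these 10 values gave p = 0.00794, the lowest value possible here. It follows from the groups not overlapping and adds nothing to that. Leaving out single libraries moved the log2 fold change to between 1.53 and 2.16. In the 6 libraries numbered 3, 4 and 5 alone, it was 2.64 (standard error 0.49). This choice, made after seeing the data, leaves out the 4 libraries with the highest fibroblast marker sums.

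Adam11 (ENSMUSG00000020926, chromosome 11 from 102761439 to 102780262, forward strand) encodes one of the ADAM proteins without a catalytic site, a surface protein of neurons that binds secreted LGI proteins. It lay at 9.06, 10.4, 4.96, 9.37 and 15.4 CPM in NLC-MI 1 to 5, and at 5.98, 4.18, 4.51, 3.23 and 5.20 CPM in TgGRK5-MI 1 to 5. All TgGRK5-MI libraries were below the NLC-MI mean, but NLC-MI 3, the library with the fewest counts, lay among them, so the groups overlapped. No member had all TgGRK5-MI values below all NLC-MI values (0 members, against 0.42% of all genes tested). For Adam11 the log2 fold change was -1.09 (standard error 0.28). By edgeR the unadjusted p was 0.00204 and the adjusted p 0.510, and the adjusted p was 0.0593 by DESeq2 and 0.0862 by limma-voom. Permuting the libraries exactly gave p = 0.0238. NLC-MI 5, the highest library for Adam11, was also the one highest in cardiomyocyte markers (134324 CPM). The log2 fold change of Adam11 without this library was -0.88 (standard error 0.25).

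Adamts7 (ENSMUSG00000032363, chromosome 9 from 90163069 to 90208071, forward strand) encodes a protease that cleaves the cartilage oligomeric matrix protein (COMP) and is known from the genetics of coronary artery disease. Its values were 18.2, 25.9, 21.9, 19.7 and 35.6 CPM in NLC-MI 1 to 5, and 18.7, 18.1, 14.2, 14.95 and 15.7 CPM in TgGRK5-MI 1 to 5. Here too all TgGRK5-MI libraries were below the NLC-MI mean, and the groups overlapped through TgGRK5-MI 1 and NLC-MI 1. Adamts7 had a log2 fold change of -0.57 (standard error 0.19), by edgeR with an unadjusted p of 0.0124 and an adjusted p of 1, while permuting the libraries exactly gave p = 0.0159. NLC-MI 5 was again the highest library, and its removal left a log2 fold change of -0.40 (standard error 0.16). Adamts7 shares 122 exon bases with Tbc1d2b on the opposite strand, and the library kit does not mark strand. For Tbc1d2b the NLC-MI libraries had 28.9 ± 9.57 CPM (SD, n = 5) and the TgGRK5-MI libraries 27.3 ± 8.66 CPM (SD, n = 5). Adamts20 and Adam11 share exon bases with no other annotated gene.

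**Figure D2:**
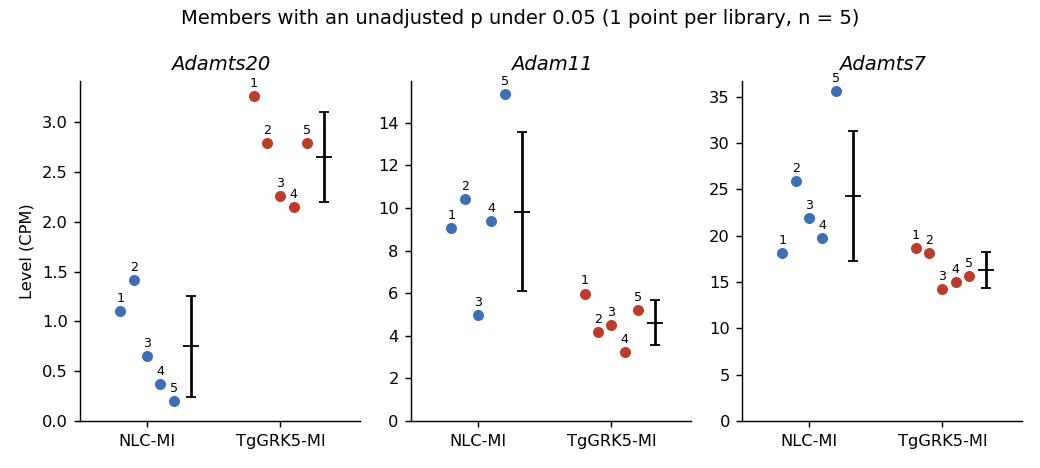
Levels of Adamts20, Adam11 and Adamts7 in CPM (y axes, from 0) in the 5 NLC-MI (blue) and 5 TgGRK5-MI (red) libraries, each point numbered by its replicate, with the mean ± SD in black. The groups are apart for Adamts20, while NLC-MI 3 for Adam11 and NLC-MI 1 for Adamts7 lie within the TgGRK5-MI range.

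The levels of the family spanned a wide range, and they were compared between genes as CPM per kilobase of exon. Adam9 was highest at 39.1 CPM per kilobase over all 10 libraries, followed by Adamtsl5 at 26.4, Adam15 at 18.1, Adamts1 at 17.9 and Adam10 at 17.6. The last 3 differed by less than the SD of each of them over the NLC-MI libraries (4.27 to 6.85 CPM per kilobase). By this measure Adamts7 ranked 14 of 36 (3.23 CPM per kilobase), Adam11 ranked 19 (1.27), and Adamts20 ranked 30 (0.189), so that the member with the largest change was among the least abundant.

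**Figure D3:**
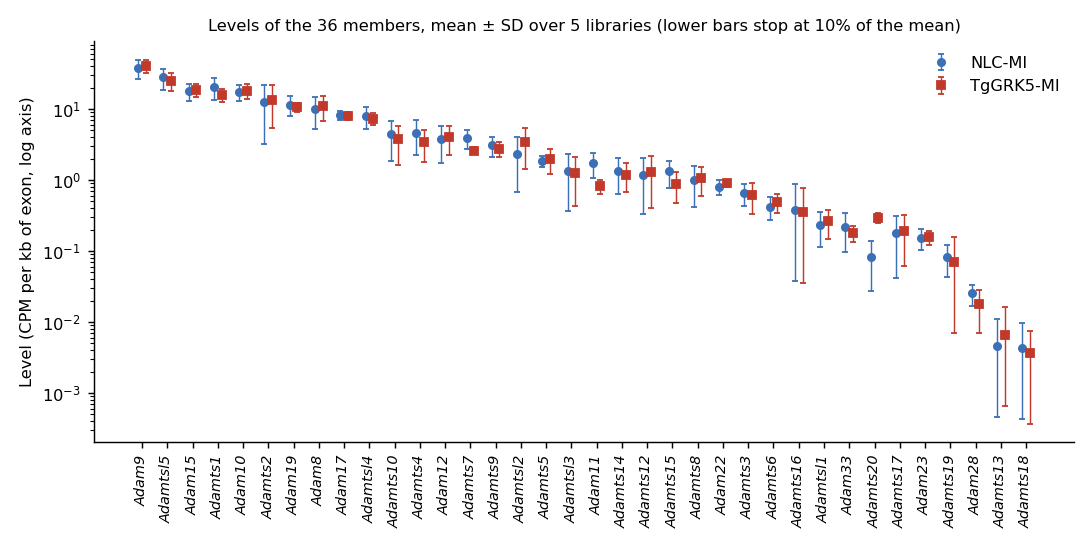
Level of each of the 36 members in CPM per kilobase of exon (y axis, logarithmic), ordered from high to low, as mean ± SD over 5 NLC-MI (blue) and 5 TgGRK5-MI (red) libraries; lower bars stop at 10% of the mean. The order runs from Adam9 at 39.1 to Adamts18 at 0.00397 CPM per kilobase. On this axis the group means lie furthest apart for Adamts20 and Adam11.

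Among the 9 catalytic membrane ADAM genes, 8 were tested and 0 had an unadjusted p under 0.05. Adam9, a broadly expressed sheddase, lay at 157.1, 170.1, 161.9, 211.0 and 78.1 CPM in NLC-MI 1 to 5 and at 172.9, 195.3, 106.7, 186.2 and 168.2 CPM in TgGRK5-MI 1 to 5. The groups overlapped, with NLC-MI 5 lowest and TgGRK5-MI 3 next (log2 fold change 0.09, standard error 0.25). Adam10, which releases Notch receptors and N-cadherin, was at 108.2, 89.6, 93.6, 77.7 and 52.1 CPM in NLC-MI 1 to 5 and at 80.8, 93.5, 64.1, 119.7 and 83.3 CPM in TgGRK5-MI 1 to 5. Again NLC-MI 5 and TgGRK5-MI 3 were the lowest of their groups, and the log2 fold change was 0.07 (standard error 0.21). Adam15, a sheddase also found in endothelium, was at 133.4, 124.7, 85.8, 131.6 and 70.4 CPM in NLC-MI 1 to 5 and at 92.4, 143.0, 85.5, 119.1 and 128.5 CPM in TgGRK5-MI 1 to 5. Its groups overlapped as well (log2 fold change 0.06, standard error 0.21).

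Adam17, the TNF-converting enzyme, was the steadiest member, with 46.0 CPM in its lowest and 69.2 CPM in its highest library. Its log2 fold change was -0.02 with the smallest standard error of the family (0.14). Adam8, an ADAM of leukocytes, ranged from 14.3 to 75.9 CPM, Adam12, which is induced in activated mesenchymal cells, from 10.98 to 63.8 CPM, and Adam19, a neuregulin sheddase of the developing heart, from 37.8 to 97.1 CPM. The log2 fold changes of these 3 were 0.15, 0.07 and -0.12, each smaller than its standard error. Without NLC-MI 5, however, Adam19 had an unadjusted p of 0.0487 in edgeR (log2 fold change -0.30, standard error 0.14). The same gene was at -0.05 without NLC-MI 2 and also without NLC-MI 3, and at 0.02 with a covariate of sex-linked expression (unadjusted p = 0.937 in edgeR). Adam33 stayed at or below 2.02 CPM. Adam28 had 0 to 6 counts per library and was not tested. Adam12 matches an annotated processed pseudogene over 373 bases at 99.7% identity, and Adam8, Adam15, Adam17 and Adam19 share exon bases with genes on the opposite strand, so their counts carry that uncertainty.

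Of the relatives of Adam11 without the zinc site, Adam22 lay between 7.83 and 15.8 CPM and Adam23 between 1.69 and 3.92 CPM. Their log2 fold changes were 0.15 (standard error 0.19) and 0.01 (standard error 0.28), so neither had the difference seen for Adam11, although a difference between these genes was not tested.

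The proteoglycan-cleaving ADAMTS genes were all 7 tested, and besides Adamts20 none of them had an unadjusted p under 0.05. Adamts1, a protease induced by inflammation, was at 99.8, 79.5, 135.1, 151.8 and 66.1 CPM in NLC-MI 1 to 5 and at 71.5, 77.0, 80.8, 72.9 and 113.4 CPM in TgGRK5-MI 1 to 5. The TgGRK5-MI libraries lay within the NLC-MI range, most of them in its lower part. Adamts1 had a log2 fold change of -0.36 (standard error 0.23, unadjusted p = 0.153 in edgeR), which was -0.50 when NLC-MI 5 was left out (unadjusted p = 0.0417 in edgeR) and -0.19 when NLC-MI 4 was left out. With a covariate of sex-linked expression the sign turned, at 0.05 (unadjusted p = 0.795 in edgeR). Adamts15 had the lowest unadjusted p among the remaining 30 members, 0.115 in edgeR (log2 fold change -0.58, standard error 0.34), with values from 9.11 to 21.9 CPM in NLC-MI and from 4.86 to 14.7 CPM in TgGRK5-MI. Without TgGRK5-MI 1 the log2 fold change of Adamts15 was -0.83 (unadjusted p = 0.0346 in edgeR), and in the 6 libraries numbered 3, 4 and 5 alone it was -1.20 (unadjusted p = 0.0117 in edgeR). It shrank to -0.35 without NLC-MI 4 (unadjusted p = 0.325 in edgeR).

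Adamts4 and Adamts5, the classical aggrecanases, ranged from 3.92 to 33.8 CPM and from 13.6 to 32.5 CPM. Adamts9, a versican protease needed for heart development, ranged from 23.9 to 60.9 CPM, and Adamts8 from 1.18 to 7.72 CPM. Their log2 fold changes lay on both sides of 0, at -0.43, 0.09, -0.16 and 0.09, all within 1 standard error. Exon bases are shared with a gene on the opposite strand by Adamts4 (171), Adamts8 (489) and Adamts9 (1381 and 424).

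Adamts2, Adamts3 and Adamts14 remove the amino-terminal propeptide of procollagens, a step of collagen fibre formation, and Adamts3 also activates VEGF-C. Adamts2, the most abundant of these 3 genes, was at 209.6, 214.0, 44.8, 83.9 and 36.3 CPM in NLC-MI 1 to 5 and at 142.9, 248.0, 49.6, 91.3 and 98.7 CPM in TgGRK5-MI 1 to 5. In both groups the libraries numbered 1 and 2 were well above the rest, and the groups overlapped. With a log2 fold change of 0.10, its standard error was 0.54, so that a change of this gene between the groups could not be resolved. Adamts14 was also highest in those libraries, with values from 2.26 to 10.95 CPM and a log2 fold change of -0.19 (standard error 0.42). Adamts3 ranged from 2.15 to 5.81 CPM, and its log2 fold change was -0.08 (standard error 0.32).

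Adamts12, the second COMP-cleaving protease, ranged from 2.17 to 28.9 CPM with a log2 fold change of 0.12 (standard error 0.61). Of the fibrillin-associated and less studied ADAMTS genes, Adamts10, which takes part in microfibril assembly, was at 56.2, 59.5, 13.8, 29.7 and 21.3 CPM in NLC-MI 1 to 5 and at 30.8, 58.2, 14.1, 18.6 and 31.8 CPM in TgGRK5-MI 1 to 5. The groups covered the same range (log2 fold change -0.23, standard error 0.44). Adamts6, Adamts16, Adamts17 and Adamts19 had log2 fold changes from -0.11 to 0.19. Adamts16 had the largest standard error of the family, 1.09, with 0 counts in NLC-MI 5 and TgGRK5-MI 3 and 7.12 CPM in NLC-MI 2.

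Adamts13, the protease of the von Willebrand factor, which is made mainly in the liver, had 0 or 1 count per library. The values were 0, 0, 0, 0.0468 and 0.0654 CPM in NLC-MI 1 to 5 and 0, 0, 0, 0.108 and 0.0536 CPM in TgGRK5-MI 1 to 5. Adamts18 had 0 to 2 counts. Both are at or under 3 counts in every library, and a difference between the groups was not detectable at this depth.

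Among the ADAMTS-like genes, which share the matrix-binding modules but have no protease domain, Adamtsl5, a microfibril-binding protein, was highest. It lay at 79.2, 101.1, 158.2, 186.3 and 130.2 CPM in NLC-MI 1 to 5 and at 105.5, 75.0, 145.6, 154.6 and 109.7 CPM in TgGRK5-MI 1 to 5. In both groups the libraries numbered 1 and 2 were the lowest, the reverse of Adamts2, and the groups overlapped (log2 fold change -0.15, standard error 0.25). Adamtsl2, which binds fibrillin and a latent TGF-β binding protein, had the largest positive log2 fold change among the 30 other members, 0.52 (standard error 0.52), over values from 7.06 to 50.8 CPM. Adamtsl1, Adamtsl3 and Adamtsl4 had log2 fold changes of 0.15, -0.09 and -0.12. Of the 30 members with an unadjusted p of 0.05 or more, 27 had a log2 fold change smaller than its standard error. This count is partly set by the choice of members, since that p rests on the same ratio.

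The libraries of a group varied widely, and for part of the members this variation followed the summed level of fibroblast markers. The 4 libraries highest in fibroblast markers were also the 4 highest libraries for 11 of the 33 members, as they were for 3.97% of all genes tested. These members were Adam12, Adam23, Adamts2, Adamts8, Adamts12, Adamts14, Adamts16, Adamts17, Adamts19, Adamtsl1 and Adamtsl3. Adamts16 was at 3.66 to 7.12 CPM in these 4 libraries and at 0 to 0.911 CPM in the other 6, and Adamts2 was at 142.9 to 248.0 CPM against 36.3 to 98.7 CPM. For Adamtsl5 alone among the members, the same 4 libraries were the 4 lowest, at 75.0 to 105.5 CPM against 109.7 to 186.3 CPM, as was so for 1.06% of all genes tested. For Adam11 and Adamts7 neither order held. For Adamts20 neither could hold, because every TgGRK5-MI library was above every NLC-MI library. Within NLC-MI, Adamts20 was at 1.10 and 1.42 CPM in libraries 1 and 2 and at 0.196 to 0.653 CPM in libraries 3 to 5. Within TgGRK5-MI, it was at 3.26 and 2.79 CPM in libraries 1 and 2 and at 2.15 to 2.79 CPM in libraries 3 to 5. These comparisons were chosen after the values were seen and carry no test. In RNA of bulk samples, fewer cells of a type and less RNA per cell cannot be told apart.

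**Figure D4:**
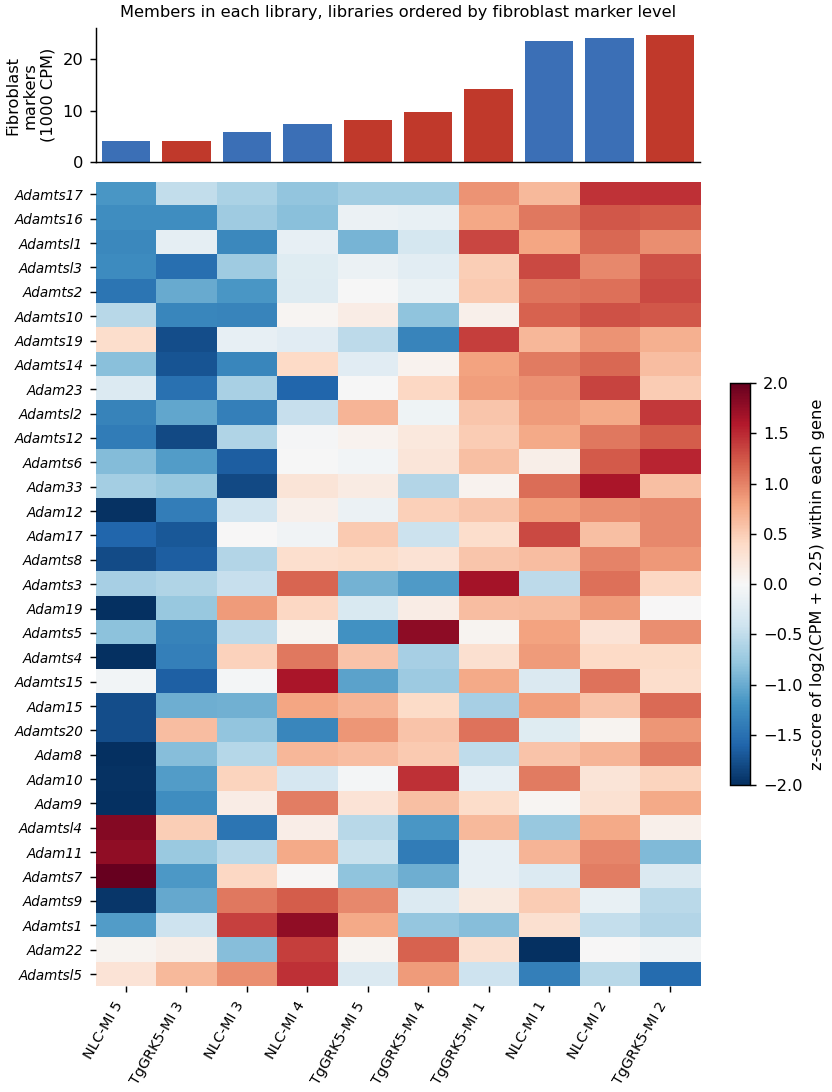
Level of each of the 33 members tested (rows) in each library (columns), as the z-score of log2(CPM + 0.25) within a gene, below the summed CPM of 10 fibroblast markers (bars, blue for NLC-MI and red for TgGRK5-MI). Libraries are ordered by that sum and members by their mean z-score in the 4 libraries on the right: the upper rows turn red toward the right, and Adamtsl5 at the bottom turns blue.

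NLC-MI 5 was the other library that set the spread. It had the lowest fibroblast sum (4054.1 CPM) and the highest cardiomyocyte sum, and it held the lowest value of 14 of the 33 members, Adam8, Adam9, Adam10 and Adam19 among them. TgGRK5-MI 3, with the second lowest fibroblast sum (4213.7 CPM), held the lowest value of 8 members. By contrast Adam11, Adamts7 and Adamtsl4 were highest in NLC-MI 5. The matching counts over all genes tested were not made, so whether these counts are particular to the family is not known. The part of cell composition in the differences of Adam11 and Adamts7 was not tested beyond leaving out libraries.

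The genes that act with the family were taken from lists of inhibitors, maturation factors, shed proteins, matrix substrates and LGI ligands. Of these 67 genes, 62 were tested and 0 had an adjusted p under 0.10 in edgeR (0.0788% of all genes tested). At an unadjusted p under 0.05, TgGRK5-MI was higher for 2 of them, where 1.77% of all genes were higher, and lower for 2, where 2.08% were lower. The median log2 fold change was -0.02.

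Among the 4 LGI ligands, Lgi1, which binds Adam11, Adam22 and Adam23 in the nervous system, was higher in TgGRK5-MI. It lay at 2.51, 2.87, 6.14, 1.45 and 8.50 CPM in NLC-MI 1 to 5 and at 23.4, 12.2, 33.4, 13.4 and 10.1 CPM in TgGRK5-MI 1 to 5. The groups did not overlap, which held in that direction for 1 of the 62 genes tested and for 0.584% of all genes tested. The log2 fold change of Lgi1 was 2.13 (standard error 0.49). By edgeR the unadjusted p was 0.00096 and the adjusted p 0.406, and the adjusted p was 0.0059 by DESeq2 and 0.0150 by limma-voom. Permuting the libraries exactly gave p = 0.00794, which again follows from the groups not overlapping. Lgi2, Lgi3 and Lgi4 had log2 fold changes of 0.52, 0.03 and -0.02 and did not pass.

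Of the 7 inhibitors and uptake receptors, Timp3, the tissue inhibitor with the widest action on ADAM and ADAMTS proteases, was higher. It lay at 195.7, 212.0, 169.7, 152.1 and 182.8 CPM in NLC-MI 1 to 5 and at 237.3, 266.9, 193.8, 274.2 and 224.1 CPM in TgGRK5-MI 1 to 5. Only TgGRK5-MI 3 lay within the NLC-MI range. Timp3 had a log2 fold change of 0.39 (standard error 0.15), with an unadjusted p of 0.0213 and an adjusted p of 1 in edgeR. That unadjusted p was 0.0556, 0.0524 and 0.0508 in edgeR without NLC-MI 4, TgGRK5-MI 2 or TgGRK5-MI 4. It was 0.125 with the covariate of sex-linked expression (log2 fold change 0.28) and 0.0845 in the 6 libraries numbered 3, 4 and 5 alone, both in edgeR. Timp1, Timp2 and Timp4 had log2 fold changes of 0.14, 0.20 and 0.42 within their standard errors.

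Furin, the convertase that removes the inhibitory prodomain of many ADAM and ADAMTS proteases, was the only one of the 16 maturation and trafficking genes tested to pass at an unadjusted p under 0.05. It lay at 109.6, 128.8, 114.3, 133.3 and 91.8 CPM in NLC-MI 1 to 5 and at 87.9, 93.5, 74.3, 98.2 and 75.6 CPM in TgGRK5-MI 1 to 5. NLC-MI 5 was the library of overlap. For Furin the log2 fold change was -0.43 (standard error 0.14), with an unadjusted p of 0.0115 and an adjusted p of 1 in edgeR. In the 6 libraries numbered 3, 4 and 5 alone, the unadjusted p was 0.0705 in edgeR (log2 fold change -0.46). Of the 19 shed proteins tested, Efna5, an ephrin ligand released by Adam10, was lower. Its log2 fold change was -0.72, with an adjusted p of 0.510 in edgeR and 0.0478 in DESeq2. It lay at 9.70 to 13.4 CPM in NLC-MI and at 4.77 to 8.13 CPM in TgGRK5-MI. Groups apart in that direction were found for 1 of the 62 genes tested, and for 0.42% of all genes tested. The paper also names Efna5 among the genes altered in these cardiomyocytes, and the list was made with earlier results known. The 16 matrix substrates and partners tested included none with an unadjusted p under 0.05. Among them were versican (Vcan, log2 fold change 0.20, standard error 0.40), which Adamts20 cleaves, and Comp (0.91, standard error 0.63), which Adamts7 cleaves.

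**Figure D5:**
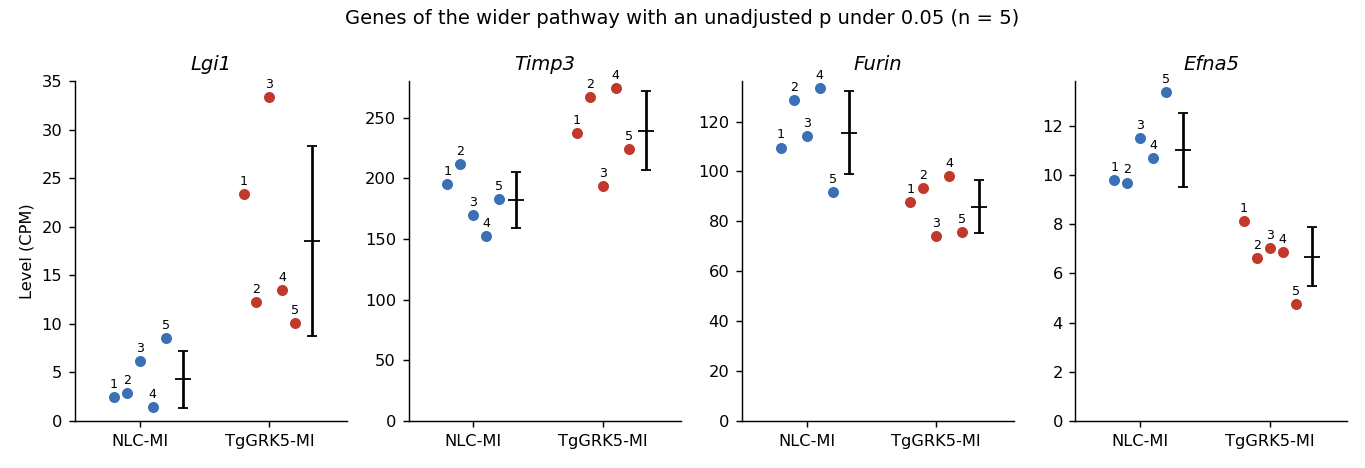
Levels of Lgi1, Timp3, Furin and Efna5 in CPM (y axes, from 0) in the NLC-MI (blue) and TgGRK5-MI (red) libraries, numbered by replicate, with the mean ± SD in black (n = 5). The groups are apart for Lgi1 (TgGRK5-MI above, as for 0.584% of all genes tested) and Efna5 (below, as for 0.42%). TgGRK5-MI 3 for Timp3 and NLC-MI 5 for Furin reach into the other group.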

How the data were processed

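RNA of cardiomyocytes was sequenced from 10 libraries, 5 of each group, made with an Illumina TruSeq kit. The authors deposited whole-number counts per Ensembl gene, not normalized. The submitters' processing notes name Bowtie2, RSEM 1.2.31, DESeq2 and mm10 without their roles. If RSEM made the counts, they were rounded before deposit.

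Counts were normalized with TMM in edgeR 4.0.16 (R 4.3.3), filtered with filterByExpr and compared with the quasi-likelihood test, adjusted with Benjamini-Hochberg over 15232 genes. The adjusted threshold is the one the paper uses. DESeq2 1.42.0, limma 3.58.1 (voom with quality weights), other scalings and filters, a covariate of sex-linked expression, the replicate number as a block and each library left out were alternatives. Permutation tests used log2 CPM with a prior count of 2 and were two-sided over all 252 placements. The tests were also run on simulated counts, drawn for each gene independently. Shifts shared by many genes of a library were not simulated, and the outcome is not given here. Proteins were aligned with mafft 7.526, and transcripts were compared with blastn 2.17.0.

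The members and gene lists were chosen with earlier results of these data known. Members got values in every library at an unadjusted p under 0.05, without overlap, among the 5 highest levels, or as the highest of a role. In the other lists, genes were named at that p, and a few more were named after their values were seen. Each library is 1 mouse.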

Additional observations from a re-analysis of the deposited data

Results flagged for a closer look

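In 74 groups of 5 libraries, 3 held a library that stood apart from the other 4 by Dixon's test, and chance gives such a library in about 5% of groups. Adam19 was at 37.8 CPM in NLC-MI 5, where the nearest other NLC-MI library had 85.6 CPM. Adamts1 was at 113.4 CPM in TgGRK5-MI 5, where the nearest other TgGRK5-MI library had 80.8 CPM. Adam22 was at 15.2 CPM in TgGRK5-MI 4, where the nearest other TgGRK5-MI library had 12.8 CPM.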

How the results depend on the processing

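At an adjusted p under 0.10, DESeq2 called 2 members and limma-voom called 1, and the other alternatives called 0, as edgeR did with all libraries. The count of higher members was 0 when every library had to hold at least 10 counts of a gene, where 28 members were tested and Adamts20 was not among them, and 1 in all other fits. The count of lower members ran from 2 to 4 with each library left out, with 4 without NLC-MI 5 (Adam19 and Adamts1 beside Adam11 and Adamts7) and 3 without TgGRK5-MI 1. In the 6 libraries numbered 3, 4 and 5 alone, added after seeing the data, 3 members were lower. Over all alternatives in which they were tested, the highest unadjusted p was 0.00743 for Adamts20, 0.0236 for Adam11 and 0.0285 for Adamts7. With the replicate number as a block, 0 members were called, 1 was higher and 2 were lower, and the log2 fold change of Adamts20 was 1.94. Same-numbered libraries deviated together with correlations from -0.34 to 0.66, over 0.1 in 2 of 5 pairs, so the numbers were not taken to pair the mice. The mean correlation was 0.17 for same-numbered and -0.03 for different-numbered libraries. In both groups, however, libraries 1 and 2 had the highest fibroblast marker sums. Among the 30 other members, the sign changed for 13 with the covariate of sex-linked expression, for 12 with limma-voom and for 12 without NLC-MI 5. The depth limits Adam28, Adamts13 and Adamts18, which were not tested.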

Other observations

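The stretch that holds the zinc ion crosses an exon junction in all 19 ADAMTS members and in 1 of the 9 ADAM members that have it, Adam10. Several members lie side by side in the genome. Adamts1 and Adamts5 are 53059 bases apart on chromosome 16, at 17.9 and 1.90 CPM per kilobase, with log2 fold changes of -0.36 and 0.09. Adamts8 and Adamts15 are 20109 bases apart on chromosome 9, at 1.02 and 1.10 CPM per kilobase, with log2 fold changes of 0.09 and -0.58. Of 24 other genes of the family, most of them known from the testis, 3 passed the filter on low counts, and 0 of these had an unadjusted p under 0.05 in edgeR (0 at the adjusted threshold). These were Adam1a, Thsd4 and Papln, with log2 fold changes of -0.75, -0.49 and -0.23 (standard errors 0.35, 0.27 and 0.28). Their unadjusted p was 0.0522, 0.0945 and 0.428 in edgeR. For Adam1a, the unadjusted p in DESeq2 was 0.0465.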
